A study of Mus musculus with 2 samples.

Results

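Genes of MHC antigen presentation and of the interferon-gamma GTPase families were measured in bone marrow-derived macrophages with and without calpain-6. The 49 genes were chosen by name and function, and a probe was assigned to a gene through its RefSeq accession. They are 49 of 20660 genes with a probe on the array, and 47 of them were measured, that is, had at least 1 probe called well above background on each of the 2 arrays. Over the whole array 12875 genes were measured.

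Macrophages were grown from the femoral marrow of male mice in medium with 10% serum, with M-CSF at 50 ng/mL, the growth factor that drives marrow cells to macrophages, and TNF-α at 10 ng/mL, an inflammatory cytokine. Serum, M-CSF and TNF-α were shared by both groups, which differ in the labels only in genotype, calpain-6 wild-type (Capn6-Wt) or calpain-6-deficient (Capn6-Ko). The design text speaks of pooled cells of 4 mice and leaves unsaid whether that is per genotype. The sampling day is 3 in the samples' descriptions and 4 in their source names. Strain, age and the kind of Capn6 mutation are not given in the sources used here. With 1 array for each genotype there was no replicate check and no test was run, and genotype cannot be told apart from any other difference between the pooled cultures.

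Major histocompatibility complex (MHC) class I molecules display peptides cut by the proteasome in the cytosol, pumped into the endoplasmic reticulum by the TAP transporter and loaded there. Class II molecules are built with the invariant chain, Cd74, travel to endosomes and receive peptides of ingested proteins with the help of the H2-DM molecule. Macrophages carry class I at all times, raise class II, the immunoproteasome and the GBP and IRG GTPases after interferon-gamma, and show peptides to T cells together with co-stimulatory ligands such as CD80 and CD86.

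The promoters of class II genes are known for an X box, bound by the RFX complex, followed by a Y box, and those of many interferon-inducible genes for an interferon-stimulated response element (ISRE). Promoter windows of 37 of the 49 genes were found in a RefSeq table of the build GRCm38.p6. The 250 bases before each gene's start were searched on both strands for GCAAC (core of the X box), CTGATTGG (Y box), GAAANNGAAA (ISRE) and TTCNNNGAA (the GAS element of interferon-gamma-inducible genes). The first group below shows the promoters of 3 class II pathway genes, in the 150 bases before the start, 5′ to 3′ along the gene, with the X box core and the Y box in capitals.
H2-Aa, chr17:34287824-34287973, reverse strand: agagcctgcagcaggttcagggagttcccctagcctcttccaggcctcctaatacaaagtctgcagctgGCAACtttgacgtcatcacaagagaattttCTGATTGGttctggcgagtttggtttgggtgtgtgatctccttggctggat
H2-Eb1, chr17:34305717-34305866, forward strand: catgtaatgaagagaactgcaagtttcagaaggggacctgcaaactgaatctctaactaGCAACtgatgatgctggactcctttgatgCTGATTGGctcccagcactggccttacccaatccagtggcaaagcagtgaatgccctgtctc
H2-Oa, chr17:34092229-34092378, forward strand: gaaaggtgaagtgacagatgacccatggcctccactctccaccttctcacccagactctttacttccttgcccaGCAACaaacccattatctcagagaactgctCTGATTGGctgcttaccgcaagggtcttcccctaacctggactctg

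In all 3 of these windows the core of the X box stood before the Y box, with 25 bases between them in H2-Aa, 24 in H2-Eb1 and 25 in H2-Oa. With the spacing allowed to run from 15 to 30 bases, a range set after these windows had been read, the pair was found in 3 of the 37 genes with a window, the same 3, and in 20 of 27025 genes of the table (0.0740%). Without a limit on spacing or order, both motifs were found in 7 of the 37 and in 1.44% of all genes. The other 4 were H2-D1, H2-T23, Tap1 and Psmb9, genes of class I presentation. The Y box was in 8 of the 37 and 4.43% of all genes, and the X box core, a short run, in 15 of the 37 and 33.0%. H2-Ab1 and Cd74 are not among the windows.

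The second group shows the promoters of the GTPase genes Igtp and Irgm2 and of B2m, the light chain of class I, with the ISRE in capitals.
Igtp, chr11:58199406-58199555, forward strand: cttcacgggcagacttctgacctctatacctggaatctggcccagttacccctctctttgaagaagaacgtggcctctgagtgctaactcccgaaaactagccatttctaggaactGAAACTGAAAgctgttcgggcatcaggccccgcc
Irgm2, chr11:58214827-58214976, forward strand: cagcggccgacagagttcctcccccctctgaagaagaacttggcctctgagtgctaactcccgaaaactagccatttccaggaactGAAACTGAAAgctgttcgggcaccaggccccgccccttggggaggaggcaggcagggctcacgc
B2m, chr2:122147537-122147686, forward strand: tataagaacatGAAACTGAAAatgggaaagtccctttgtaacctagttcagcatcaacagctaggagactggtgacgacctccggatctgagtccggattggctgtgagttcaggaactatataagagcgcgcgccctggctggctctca

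The ISRE was found in all 6 GBP and IRG genes with a window (Gbp2, Gbp3, Gbp7, Igtp, Irgm1 and Irgm2), in 9 of the 37 genes in all, and in 3.46% of all genes of the table. It began 34 bases before the start in Igtp, 64 in Irgm2 and 139 in B2m. None of the class II chain or loading genes with a window held it. The GAS letters were in 8 of the 37 genes and 8.13% of all genes. In 0 of the 37 did a match overlap one of another motif. A match describes letters in a window and is not a measured binding site.

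The study set calpain-6-deficient against wild-type macrophages to compare their gene expression. The 3 MHC class II chains were higher in Capn6-Ko by 0.30 to 0.53 on the log2 scale, and the 5 measured genes of class II peptide loading were higher by 0.13 to 0.32. The genes of class I, of peptide transport and of the immunoproteasome had a median of 0.047 over 17 genes, from -0.35 to 0.22. Among the GTPases the median was 0.15 over 4 IRG genes and -0.074 over 4 GBP genes. The values are log2 differences, Capn6-Ko minus Capn6-Wt, of the processed signal relative to the 75th percentile of each array. The ± after a difference is the spot SD, which the spread between spots of the same probe would give it. Variation between mice, cultures and RNA extracts is not in it.

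Of the 47 measured members 36 were higher and 11 lower in Capn6-Ko, with a median of 0.057, whereas over all 12875 measured genes 47.8% were higher and the median was -0.0056. At a fixed size, 25% higher or 20% lower, 3 members were higher (6.38% of 47, against 2.64% of all measured genes) and 2 were lower (4.26%, against 5.53%). Relative to the array median in place of the 75th percentile every difference is 0.065 higher, and at the same size the members split 7 higher to 1 lower and all genes 558 to 535, in place of 340 to 712. Among the brighter part of the array, genes above the median level, 2 of 29 members were at least 25% higher (6.90%, against 0.684%) and 0 at least 20% lower (against 0.886%). These 2 were H2-Ab1 and H2-Eb1. The members were chosen with earlier results of these data known, so the shares do not test them as a set. No member reached 1.5-fold relative to the 75th percentile, a size passed by 1.59% of all measured genes, or 2-fold, passed by 0.0932%. H2-Ab1 passed 1.5-fold relative to the array median (0.59), and 1 of its 2 probes passed it relative to the 75th percentile (0.61). Differences of 9 members exceeded 2 spot SDs (19.1%, against 11.2% of all measured genes), 8 higher and 1 lower. Of these 9 members 5 belong to the class II chains and loading genes, and the others are Igtp, Irgm2, Psme1 and Cd1d1. Of the 47 members 36 were read from 1 spot on each array.

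**Figure D1:**
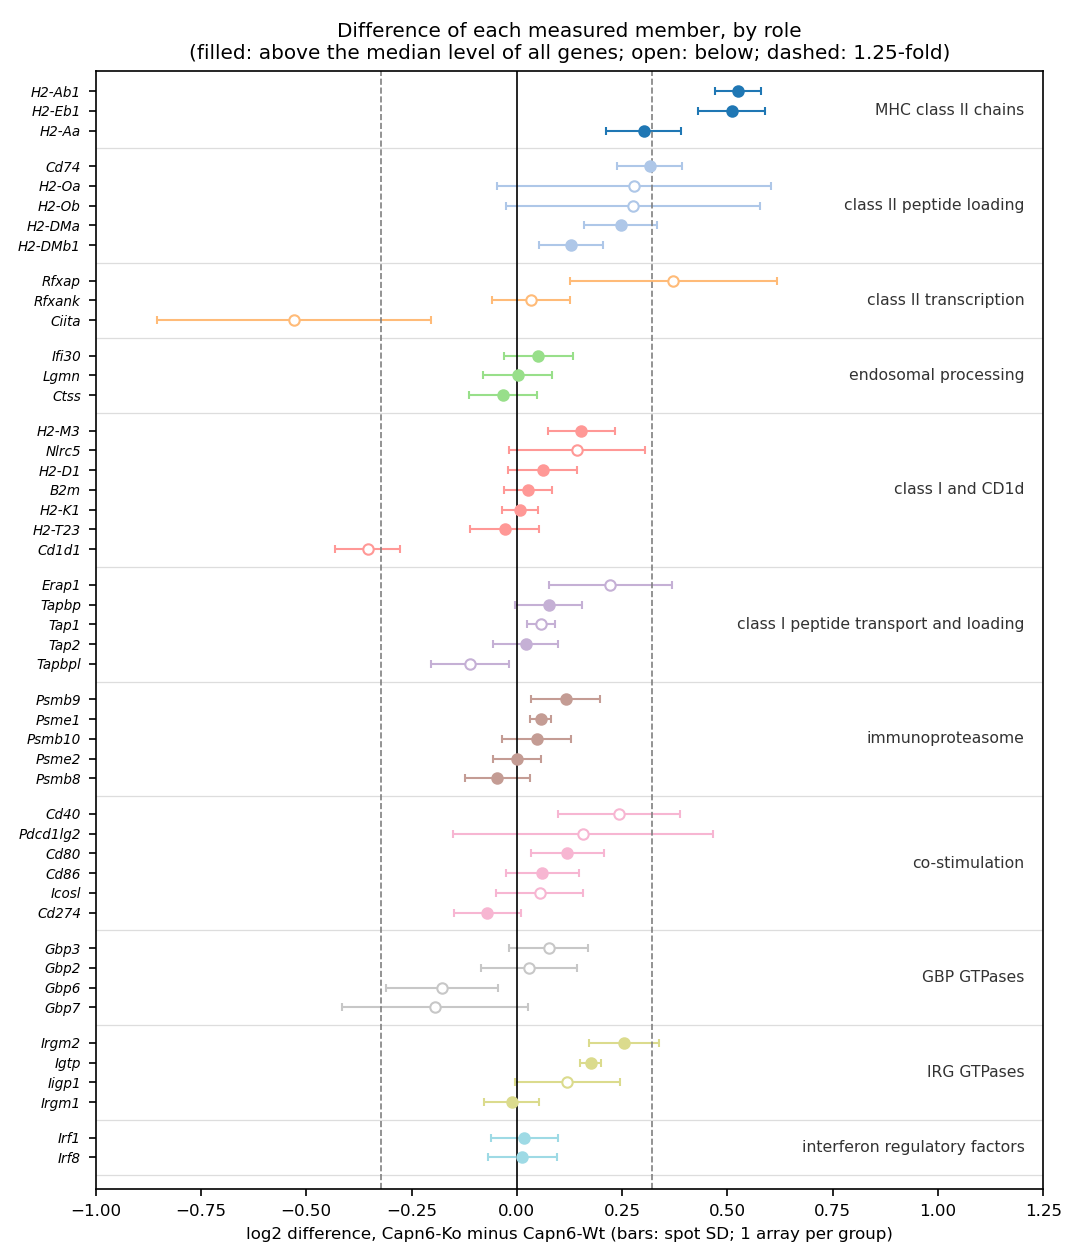
Log2 difference of each of the 47 measured members (points, x axis) with the spot SD (bars), grouped by role, 1 array per group. The class II chains and loading genes lie to the right of 0, and the class I, peptide transport and immunoproteasome genes lie on both sides of it, from Cd1d1 at -0.35 to Erap1 at 0.22.

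Among the class II chains, H2-Ab1, the beta chain of I-A, had the highest difference of all members as the mean of its 2 probes; by its brighter probe alone it came below H2-Eb1. Wherever a pair of signals is given here, the Capn6-Wt value comes first. Its 2 probes gave 6965 and 9326 (A_55_P1962747) and 5444 and 8215 (A_55_P2146560). The probes differed by 0.44 and 0.61, and their mean was 0.53 ± 0.055, or 1.44-fold. H2-Eb1, the beta chain of I-E, gave 3232 and 4546, a difference of 0.51 ± 0.079, or 1.42-fold. These genes ranked 9 and 11 from the top among 6437 genes above the median level. H2-Aa, the alpha chain of I-A, gave 676 and 823, a difference of 0.30 ± 0.089. At 1.23-fold it lay just under the fixed size, and it passed that size relative to the array median (0.37). All 3 chains were higher by more than 3 spot SDs, each read from 1 spot per probe and array.

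Cd74, the invariant chain that fills the class II groove until it reaches the endosome, gave 5382 and 6612, a difference of 0.32 ± 0.077, or 1.24-fold. H2-DMa, the alpha chain of the peptide exchange factor DM, had 788 and 923, at 0.25 ± 0.087, and H2-DMb1, a DM beta chain, had 4673 and 5044, at 0.13 ± 0.076. The higher signal was on the Capn6-Ko array for each of these genes, by more than 2 spot SDs for Cd74 and H2-DMa and by 1.69 for H2-DMb1. H2-Oa and H2-Ob, the chains of DO, which restrains DM, were dim. H2-Oa gave 24.8 and 29.7 (0.28 ± 0.33), and H2-Ob had 32.6 and 39.0 (0.28 ± 0.30), both within the spot SD. H2-DMb2, a further DM beta chain, was not well above background on either array (7.37 and 15.4), and so has no fold, as was a second H2-Ob probe (4.57 and 7.11). H2-DMb1 and H2-DMb2 are close copies, and which of them a probe reads was not tested. The median of the 5 measured loading genes was 0.28, and it was 0.102 after normexp background correction and 0.113 without background subtraction.

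The regulators of class II did not share a direction. Ciita, the transactivator of class II genes, gave 34.8 and 23.8, a difference of -0.53 ± 0.33, opposite in sign to the class II chains. Its 1 probe is dim, and the difference was -0.16 after normexp. Rfxap, a subunit of the RFX complex that binds the X box, had 47.6 and 60.8, at 0.37 ± 0.25, and 0.022 after normexp. Rfxank, another RFX subunit, had 633 and 640, at 0.033 ± 0.092. Both probes of Rfx5, the DNA-binding subunit, were not well above background on either array, with signals between 7.25 and 8.23. None of the measured regulators differed by 2 spot SDs.

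**Figure D2:**
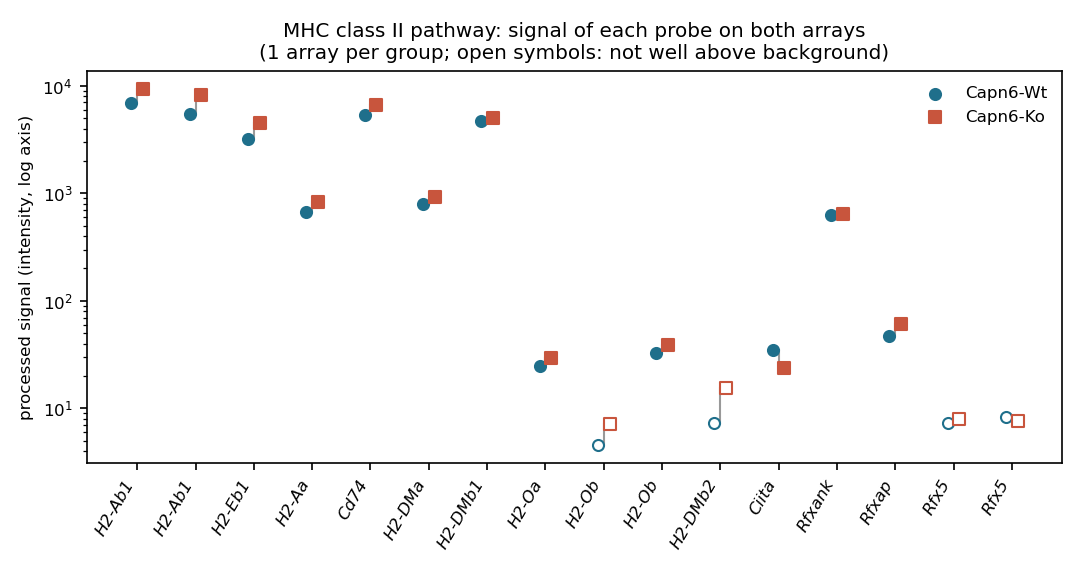
Processed signal (y axis, log scale) of every probe of the class II chains, loading genes and regulators on the Capn6-Wt array (circles) and the Capn6-Ko array (squares), with open symbols for probes not well above background. Both H2-Ab1 probes and the H2-Eb1 probe show the widest gaps among the bright probes, and Ciita is the measured probe that is lower in Capn6-Ko.

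The endosomal enzymes that prepare class II ligands differed by less than their spot SD. Ctss, the cathepsin that removes the invariant chain, differed by -0.033 ± 0.082, with signals of 238119 and 229876. Lgmn, the asparaginyl endopeptidase, differed by 0.0023 ± 0.082, and Ifi30, the thiol reductase of the endosome, by 0.051 ± 0.081. Among 10 further genes of class II trafficking and endosomal proteolysis, 5 were higher and 5 lower (8 and 2 relative to the array median), from -0.12 (Marchf8) to 0.10 (Unc93b1), and none reached the fixed size. Marchf1, a ubiquitin ligase that removes class II from the surface, was at 0.090 ± 0.047.

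The classical class I chains, H2-K1 and H2-D1, were at 0.0081 and 0.061. H2-K1 was read by a probe with 10 spots per array, which ran from 75731 to 83386 in Capn6-Wt (median 78458) and from 75690 to 85278 in Capn6-Ko (median 81745). These ranges overlap, but relative to each array's 75th percentile 10 of 10 spots were higher in Capn6-Ko, and the probe differed by 0.069 ± 0.026, over 2 spot SDs. A second probe of H2-K1, with 1 spot, differed by -0.053 ± 0.082, and the mean of both was 0.0081 ± 0.043. H2-D1 was at 0.061 ± 0.082, B2m, the shared light chain, at 0.027 ± 0.058, and H2-T23, which encodes the non-classical Qa-1, at -0.028 ± 0.082. H2-M3, which presents formylated peptides, gave 1477 and 1622, at 0.15 ± 0.081. Nlrc5, the transactivator of class I genes, had a bright probe at 0.20 ± 0.081 (1034 and 1171) and a dim one at 0.088 ± 0.31, and a mean of 0.14 ± 0.16.

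Cd1d1, which presents lipids to NKT cells, was lower in Capn6-Ko on both of its probes. The brighter probe gave 1328 for Capn6-Wt and 1113 for Capn6-Ko (-0.24), and the dimmer one 228 and 162 (-0.47). The mean was -0.35 ± 0.077, or 1.28-fold lower. Cd1d1 was the 1 member lower by more than 2 spot SDs. It stayed lower under all 9 other settings, from -0.35 to -0.24, but was less than 20% lower in 5 of them.

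Of 8 further class I genes that were measured, 7 were lower and 1 higher, from -0.11 (H2-T10) to 0.11 (H2-Q4), with none at the fixed size, and relative to the array median 4 were lower and 4 higher. The class I genes are close copies of each other, and probes may read more than 1 of them, which was not tested.

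None of the genes that supply and load class I peptides reached the fixed size. Tap1, a TAP subunit, has 10 spots per array, from 391 to 460 in Capn6-Wt (median 425) and from 402 to 468 in Capn6-Ko (median 440.3). The ranges overlap, and the difference was 0.057 ± 0.033. Tap2 was at 0.021 ± 0.078, Tapbp, the tapasin that holds class I at TAP, at 0.076 ± 0.079, and the related peptide editor Tapbpl at -0.11 ± 0.093. Erap1, the peptidase that trims peptides in the endoplasmic reticulum, was the furthest, at 0.22 ± 0.15. Of 6 chaperones of that compartment, 3 were higher and 3 lower (4 and 2 relative to the array median), from -0.21 ± 0.058 (Pdia6) to 0.062 (Canx).

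The catalytic subunits of the immunoproteasome stood at -0.046 ± 0.077 (Psmb8), 0.12 ± 0.081 (Psmb9) and 0.047 ± 0.082 (Psmb10). Psme1, a subunit of the activator that caps the proteasome, had spots from 6033 to 6766 in Capn6-Wt and from 6138 to 6728 in Capn6-Ko, where 1 of 10 spots was left out as an outlier. It differed by 0.057 ± 0.025, over 2 spot SDs but 1.04-fold in size, and its partner Psme2 by -0.00022 ± 0.057. The immunoproteasome median was 0.047, and the 16 genes of the constitutive proteasome had a median of -0.057, with 12 lower and none at the fixed size; relative to the array median, that median was 0.0075 with 7 lower.

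**Figure D3:**
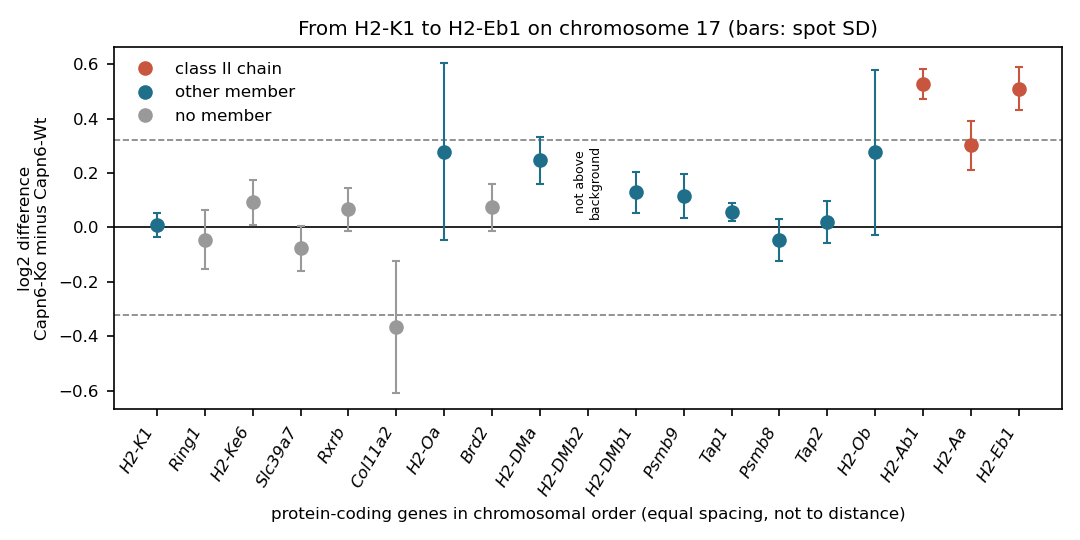
Log2 difference (y axis, bars for the spot SD) of the 19 protein-coding genes from H2-K1 to H2-Eb1 in their order along chromosome 17, equally spaced. The 3 class II chains at the right end lie above Psmb9, Tap1, Psmb8 and Tap2, which lie between -0.046 and 0.12. Their direct neighbour, the dim H2-Ob, lies at 0.28 ± 0.30, close to H2-Aa at 0.30.

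Class I and class II genes lie side by side in the MHC, so their position was set beside their difference. Of the 19 protein-coding genes from H2-K1 to H2-Eb1, in the order of a RefSeq table, 18 were measured. The 15 that are not class II chains had a median of 0.066, from -0.37 (Col11a2) to 0.28 (H2-Oa). Psmb9, Tap1, Psmb8 and Tap2 form an unbroken run between H2-DMb1 and H2-Ob and differed by -0.046 to 0.12. H2-Ab1, H2-Aa and H2-Eb1 follow directly after H2-Ob. Brd2, a chromatin reader between H2-Oa and H2-DMa, was at 0.073 ± 0.087.

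Of the 6 co-stimulatory and inhibitory genes 5 were higher, with a median of 0.090. Cd80 had a bright probe at 0.15 (3514 and 3845) and a dim one at 0.091, with a mean of 0.12 ± 0.086, and Cd86, which like CD80 binds CD28, was at 0.060 ± 0.087. Cd40, the receptor for the T-cell ligand CD40L, gave 133 and 155, at 0.24 ± 0.15. Cd274, which encodes the inhibitory ligand PD-L1, was at -0.070 ± 0.079, the related Pdcd1lg2 at 0.16 ± 0.31, and Icosl, the ligand of ICOS, at 0.054 ± 0.10. None of the 6 reached the fixed size or 2 spot SDs.

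The IRG GTPases, which act on membranes around intracellular pathogens, were led by Irgm2 and Igtp, both regulatory IRG proteins. Irgm2 gave 888 and 1046, a difference of 0.25 ± 0.084. Igtp, with 10 spots per array, ran from 1160 to 1288 in Capn6-Wt (median 1240.0) and from 1282 to 1451 in Capn6-Ko (median 1378). The ranges barely overlap, with 9 of 10 Capn6-Ko spots above every Capn6-Wt spot, and the difference was 0.18 ± 0.025, or 1.13-fold. Irgm1, the third regulatory member, had probes at -0.00095 and -0.024, and Iigp1, an effector IRG protein, was at 0.12 ± 0.12 from its 1 measured probe, the other being not well above background.

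**Figure D4:**
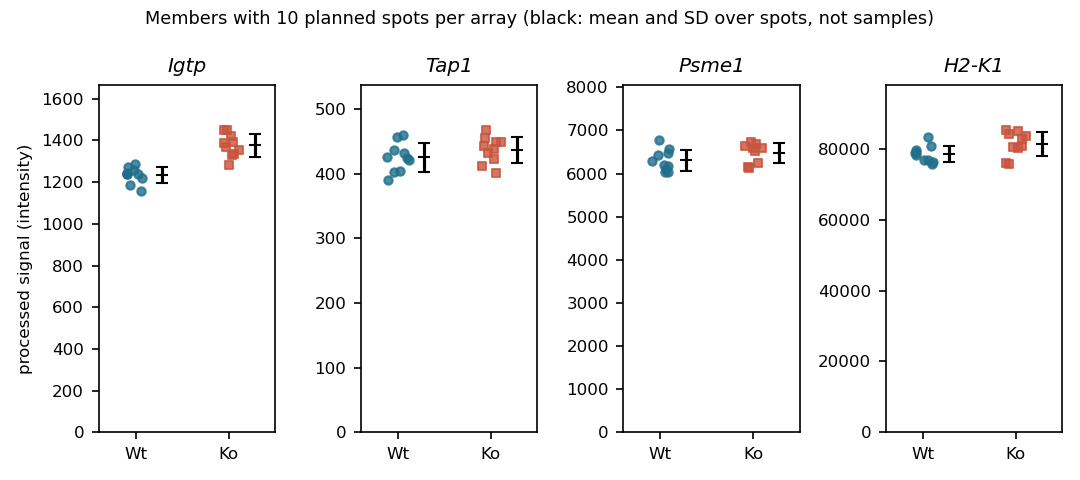
Processed signal (y axis from 0) of the single spots of the 4 members with 10 planned spots per array, with mean and SD over spots in black. The Igtp spots of the Capn6-Ko array lie almost wholly above those of the Capn6-Wt array, while Tap1, Psme1 and H2-K1 overlap.

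Of the 4 GBP GTPases, which coat pathogen membranes, 2 were higher and 2 lower. Gbp2 differed by 0.029 ± 0.11 and Gbp3 by 0.076 ± 0.094, while Gbp6 gave 199 and 174 (-0.18 ± 0.13) and Gbp7 had 68.2 and 58.8 (-0.19 ± 0.22). None of the 4 exceeded 2 spot SDs, and a second Gbp6 probe was not well above background (18.8 and 18.7). Of 7 further GBP and IRG genes that were measured, 6 were higher, and Gbp9 was the 1 past the fixed size, with 125 and 157 (0.35 ± 0.15). Gbp10 was at 0.27 ± 0.26 and Gbp8 at -0.24 ± 0.19, and Gvin1, a very large interferon-inducible GTPase, had 2 probes at 0.15 and 0.16. Several of these genes have close copies, and which copy a probe reads was not tested.

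The interferon regulatory factors differed by less than their spot SD, Irf1 at 0.018 ± 0.080 (3607 and 3605) and Irf8, a factor of the macrophage lineage, at 0.013 ± 0.081 (14393 and 14340). A second Irf1 probe was not well above background on either array. Of 14 genes of interferon-gamma receptor and STAT signalling, 7 were higher and 7 lower (10 and 4 relative to the array median), with a median of 0.018 and none at the fixed size. Ifngr1, the ligand-binding receptor chain, was at 0.20 ± 0.078 and Ifngr2 at -0.020 ± 0.079. Jak2 was at 0.056, and the feedback inhibitors Socs1 and Socs3 were at -0.23 ± 0.15 and -0.24 ± 0.089.

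The interferon-gamma gene itself, Ifng, was not well above background on either array (4.63 and 3.38). Of 10 other interferon-gamma targets 7 were measured, 5 of them higher, with a median of 0.037 and none at the fixed size. Cxcl9 (10.5 and 12.5) and Ido1 (5.86 and 3.65) were not well above background on either array. Fcgr1, a high-affinity IgG receptor, was at 0.27 ± 0.082, Cxcl10 at 0.23 ± 0.17 and Nos2 at -0.22 ± 0.13.

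**Figure D5:**
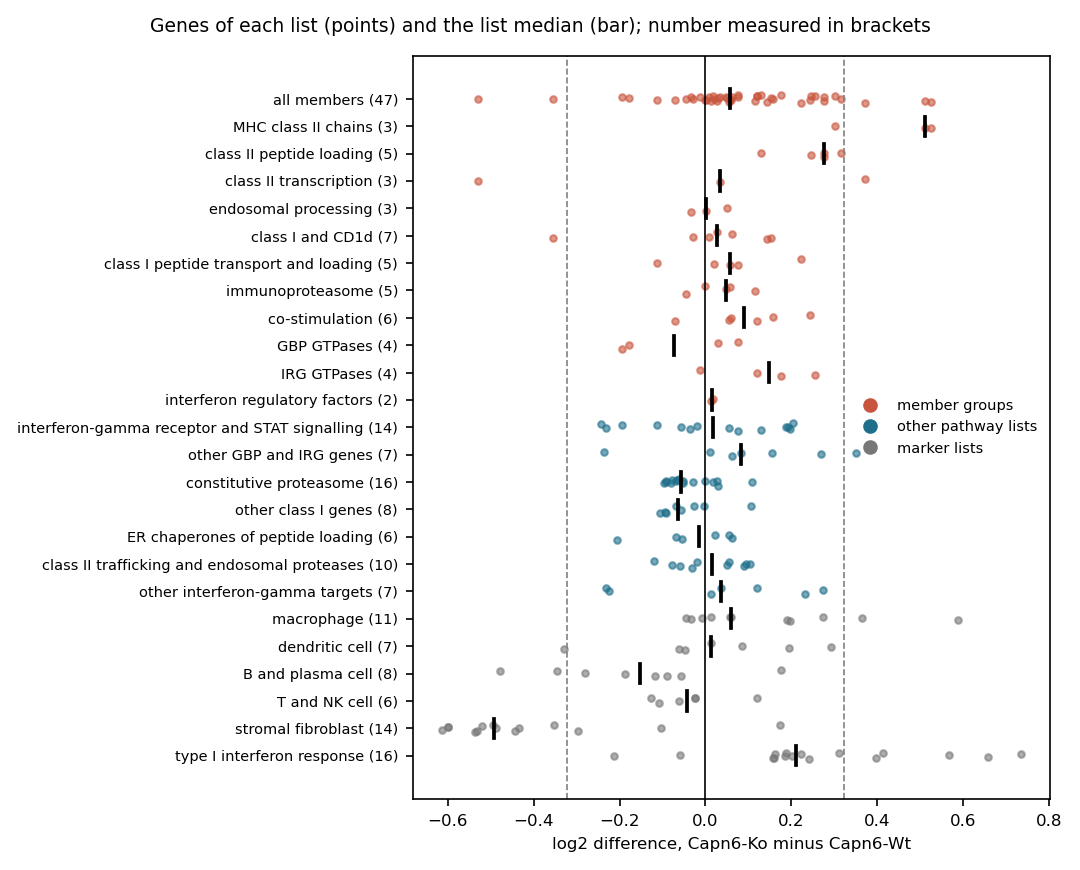
Log2 difference (x axis) of every measured gene of the member groups, the other pathway lists and the marker lists, with the list median as a bar and the number measured in brackets. Dashed lines mark the fixed size; the class II chains and loading genes all lie right of 0, and the stromal list has the lowest median, -0.49.

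Lists of cell type markers and of the type I interferon response were measured on the same arrays. In bulk RNA, fewer cells of a type and less RNA per cell cannot be told apart. The 11 measured macrophage markers had a median of 0.059, with 8 higher, 5 of them by over 2 spot SDs and 2 past the fixed size. These 2 were Cx3cr1, the fractalkine receptor, at 0.59 ± 0.063 (a larger difference than that of any member) and Cd14, the lipopolysaccharide co-receptor, at 0.36 ± 0.076 (1.29-fold). Csf1r, the M-CSF receptor, was at 0.20 and Adgre1, the F4/80 antigen, at 0.19, while Lyz2 was at -0.0078, and the brightest probes of the list's genes summed to signals of 338574 and 358012. All 11 genes of the list with a named probe were measured, and Cd68 has no named probe. Of 14 measured stromal fibroblast markers 13 were lower, 11 of them past the fixed size; the list median was -0.49 and the summed signals were 66405 and 45449. The type I interferon response list had 16 measured genes, 14 higher and 2 lower, a median of 0.21 and summed signals of 17445 and 20333. Of the higher genes 5 were past the fixed size. Oas2 at 0.73 ± 0.085, Rtp4 at 0.57 ± 0.088 and the dim Ifit3 at 0.66 ± 0.21 also had larger differences than any member. The part of the macrophage, stromal and type I interferon shifts in the class II, IRG and Cd1d1 values was not tested.

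Dendritic cells and B cells also carry class II. Of 14 dendritic cell markers 7 were measured, 4 of them higher, with a median of 0.012 and summed signals of 90624 and 88626. Of the others 5 were not well above background on either array, among them Flt3, Zbtb46 and Xcr1, which define dendritic cells, and 2 were well above it on the Capn6-Ko array only, Clec9a (14.2 and 21.2) and Kmo (16.3 and 19.9). Fscn1, at -0.33 ± 0.16, was the 1 marker of the list past the fixed size, Batf3 was at 0.29 ± 0.096, and Itgax, which macrophages also express, was at 0.084. The summed signal of this list was mostly that of Siglech (62926 and 60082, at -0.049) and Itgax (21495 and 22504), so it says little about the other markers. Of 14 B and plasma cell markers 8 were measured, 7 of them lower, with a median of -0.15 and summed signals of 2517 and 2299. Past the fixed size were 2 of the 8, both lower (25%, against 5.53% of all measured genes). They were Jchain (647 and 503, at -0.35 ± 0.095) and the dim Ms4a1 (37.8 and 26.8, at -0.48 ± 0.32). Cd22 was at -0.056 (1367 and 1298), and Cd79b, at 0.18 ± 0.13 (199 and 222), was the 1 higher. Of the others 4, Cd79a among them, were not well above background on either array, and 2 were well above it on the Capn6-Ko array only. Of 14 T and NK cell markers 6 were measured, 5 of them lower (2 relative to the array median), with a median of -0.043. The summed signals of the list were 3471 and 3362, mostly those of Cd4 (2523 and 2496). Also measured were Cd3e (499 and 458, at -0.11 ± 0.10) and Lck (160 and 155). Prf1 (131 and 119), Cd2 (48.4 and 52.0) and Klrb1c (43.4 and 42.2) were dimmer. The other 8, Cd3d, Cd3g and Ncr1 among them, were not well above background on either array.

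The targeted gene does not check the labels. Its 1 probe, at 3.93 for Capn6-Wt and 8.65 for Capn6-Ko, was below the well-above-background call on both arrays. Over the non-control spots, 51.7% were well above background in Capn6-Wt and 52.8% in Capn6-Ko, and no spot was saturated. Precision is limited by there being 1 array for each genotype.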

How the data were processed

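RNA of 1 Capn6-Wt and 1 Capn6-Ko culture was hybridised in 1 colour (Cy3) to Agilent arrays. The authors deposited scanner files whose headers name Agilent Feature Extraction 10.10.1.1, and whose processed signal is an intensity on a linear scale, background-subtracted within the array and not scaled between arrays. The authors' deposited value table equals this intensity times 1 constant per array (2.39 and 2.42) in all 59305 rows, with column medians of 53.0 and 50.7. It is uncentred and has no direction. The sources used here do not say how the constants were chosen, but the constants scale the arrays almost as the 75th percentile does here. The median difference of all members was 0.0571 with either scaling. The value table is therefore not an independent check of the scaling.

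Control spots and outlier spots (161 and 136) were left out. Log2 values of the deposited intensity were set against each array's 75th percentile (377 and 372) and averaged over the spots of a probe. A probe counts as measured if most of these spots are called well above background on each array. A gene is the mean of its measured probes. Of 55678 probes, 27232 matched a symbol through a RefSeq table of GRCm38.p6, used for names and gene order. The array design is annotated on mm9, and no coordinate of it is printed. The spot SD comes from 263 replicated probes with at least 5 spots, in 8 bins of level.

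No test was possible with 0 residual degrees of freedom, so fixed sizes (25% higher or 20% lower, 1.5-fold and 2-fold) describe the differences. Every member is named, with both signals for members past the first size and for class II chains and loading genes. Genes of the other pathway lists past that size were named by rule (at most 4 a list), and any further gene named was picked with its value known. Members and lists were chosen with earlier results of these data known. The planned mean signal column was replaced by the median signal in the alternatives. Python 3.11.15, numpy 2.4.6, pandas 2.3.3, R 4.3.3 and limma 3.58.1 (normexp with offset 50, quantile) were used, and the scripts were tested on simulated data.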

Additional observations from a re-analysis of the deposited data

How the results depend on the processing

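Under 9 other settings the class II chain median stayed between 0.44 and 0.58, and that of chains and loading genes together between 0.21 and 0.35. H2-Ab1 and H2-Eb1 were at least 25% higher in each. Not all of these settings could change a value. The authors' value table scales the arrays almost as here, and gave 0.5103 for H2-Eb1, as here. H2-Aa and H2-Eb1 have 1 probe each. They kept their values (0.30 and 0.51) with no filter on dim probes, only bright probes, the brightest probe or outlier spots kept. The count of members at least 25% higher, 3 here, was 7 with the median centre (4.33% of all genes), 5 with quantile normalization (3.16%) and 6 of 49 with no filter on dim probes (8.07%), and 2 with normexp (0.629%), without background subtraction (0.761%) and with only probes above the median level (0.868%). The count at least 20% lower, 2 here (5.53% of all genes), was 1 with the median centre (4.16%) or the brightest probe (5.59%). It was 0 with normexp (1.52%) and with the median signal without background subtraction (1.88%). It was also 0 with only probes above the median level (1.30%), where 36 members were measured. The loading median of 0.28 was 0.102 with normexp and 0.113 without background subtraction. The median of Irf1 and Irf8 was 0.236 with no filter, where the dim Irf1 probe enters, and the GBP median of -0.074 was 0.0758 with only bright probes, where Gbp3 alone was measured. Single genes moved by over their spot SD in 21 of 412 values, and none past the fixed size changed sign. The 412 include values that a setting could not change. Of the 47 members 34 were higher under quantile normalization and 41 under the median centre, in place of 36. The median of all measured genes was -0.0027 under quantile normalization and 0.059 under the median centre, in place of -0.0056. The share of all genes that were higher was not counted under these settings, so these counts show no shift particular to the members. In size at or under 0.12, 9 members (Ctss, Lgmn, H2-K1, H2-T23, Psmb8, Psme2, Gbp2, Iigp1 and Irgm1) took the other sign under at least 1 setting. The median centre turned the medians of the constitutive proteasome, other class I, chaperone and T and NK lists from below to above 0 (0.0020 to 0.049). Probes near the lowest signal called well above background (16.6 and 14.0), such as those of Ciita, Rfxap, H2-Oa and H2-Ob, limit what can be read. No paired analysis was possible because each group is 1 array, so leaving out a replicate was not possible either.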
